A study of Mus musculus with 4 samples.

Results

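The genes described here are 9 complement components and complement receptors measured by RNA-seq in macrophages of the mouse periosteum, the membrane that covers bone. They are the chains of the pattern recognition molecule C1q (C1qa, C1qb and C1qc), the central component C3, the alternative pathway proteins properdin (Cfp) and factor B (Cfb), the anaphylatoxin receptors C3ar1 and C5ar1, and the C3b receptor Vsig4. The rule that picked the members is a list of symbols and uses no measured value, though it was drawn up with earlier results of these data known, and all 9 were found in both deposited tables, among 15603 gene names in all. CX3CR1-expressing CD45+ cells of wild-type male C57BL/6 mice were taken at postnatal day 28 and split by surface ACE (angiotensin-converting enzyme) in one sort and by CD74 (a chaperone of MHC class II molecules) in the other. The 4 groups were ACE-positive (ACE+), ACE-negative (ACE-), CD74-positive (CD74+) and CD74-negative (CD74-) cells, with 1 library each and 1 table for each sort, and the labels do not give the number of animals behind a library. With 0 replicates, no difference below has a replicate check, and every interval covers counting error only.

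Complement is a cascade of plasma and membrane proteins that tags microbes, immune complexes and dying cells for uptake. C1q starts the classical pathway by binding such targets, C3 cleavage coats them with C3b, and properdin and factor B build and hold the alternative pathway convertase that cleaves more C3. Much circulating complement is made in the liver, but C1q is made largely by macrophages and related myeloid cells, and its expression is a common mark of tissue-resident macrophages.

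Summed over a table's genes, there were 10944171 reads in the ACE+, 12561196 in the ACE-, 13282126 in the CD74+ and 7020232 in the CD74- library. Levels are CPM, read counts scaled to the effective size of each library. Where no read was seen, up to 3 reads remain possible, which is 0.212 CPM in the CD74+ and 0.456 CPM in the CD74- library. Calls needed a table mean of 5 CPM, a log2 ratio of CPM + 1 of 1 or more in either direction, and a 95% fold interval that did not reach 1. Of 9656 genes tested in the ACE sort, 9.46% were called higher and 8.62% lower in ACE+ cells. Of 9719 genes tested in the CD74 sort, 9.08% were called higher and 7.73% lower in CD74+ cells. Calls were 52.3% higher ones in the ACE sort, against 67.2% under scaling by plain totals, 63.8% when the 50 most abundant genes were left out of the totals and 65.2% when centred by exonic length. The CD74 sort had 54.0%, against 74.8% under plain totals and 67.7% without those 50 genes. Plain totals moved the median log2 ratio of all tested genes by 0.13 in the ACE sort and 0.18 in the CD74 sort. The sorting genes followed the labels, with Ace at 1215 CPM in the ACE+ and 11.6 CPM in the ACE- library and Cd74 at 2157 CPM in the CD74+ and 455 CPM in the CD74- library. The sorts overlapped, since Cd74 was 6.64-fold higher in ACE+ cells and Ace 3.62-fold higher in CD74+ cells. All 8 macrophage marker genes, Csf1r and Adgre1 among them, had reads in all 4 libraries. The same libraries also held RNA of neutrophil marker genes, most of it from granule and S100 genes: the 10 markers summed to 11216 CPM in the ACE+, 16115 CPM in the ACE-, 13814 CPM in the CD74+ and 27677 CPM in the CD74- library, none of them at 0. Of the markers tested, 2 of 4 B cell and 3 of 6 erythroid ones were higher in ACE+ cells, and 2 of 2 T and NK, 3 of 4 mast and basophil and 2 of 5 dendritic ones were lower. Gzma of the T and NK list and Ms4a2 of the mast and basophil list were under 5 CPM in the ACE+ library. They reached the mean through the ACE- library, so these counts are a description. In CD74+ cells 4 of 4 mast and basophil markers were higher, 1 of 2 T and NK, 2 of 5 dendritic and 4 of 6 erythroid markers were lower, and 0 of 4 B cell markers were called. Fewer cells of a type and less RNA per cell cannot be told apart in such bulk libraries.

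The C1q chains were high in both marker-positive libraries and low in both marker-negative ones. C1qa (ENSMUSG00000036887), C1qb (ENSMUSG00000036905) and C1qc (ENSMUSG00000036896) lie side by side on the minus strand of GRCm38 chromosome 4, from 136880129 to 136898803, a span of 18.7 kb. C1qa stood at 336 CPM (interval 326 to 347) in the ACE+ library and 42.1 CPM (38.5 to 46.0) in the ACE- library. In the other sort C1qa stood at 275 CPM (267 to 284) in the CD74+ library and 17.2 CPM (14.2 to 20.7) in the CD74- library. The intervals of the paired libraries were far apart for this chain in both sorts.

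C1qb stood at 433 CPM in the ACE+ and 48.7 CPM in the ACE- library, and at 309 CPM in the CD74+ and 26.6 CPM in the CD74- library. C1qc was at 338 CPM in the ACE+ and 27.7 CPM in the ACE- library. For C1qc in the CD74 sort the levels were 256 CPM in the positive and 17.0 CPM in the negative library. The order of the libraries was thus the same for the C1q chains: ACE+, CD74+, ACE-, CD74-, although levels of the separately scaled tables are only set side by side.

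**Figure D1:**
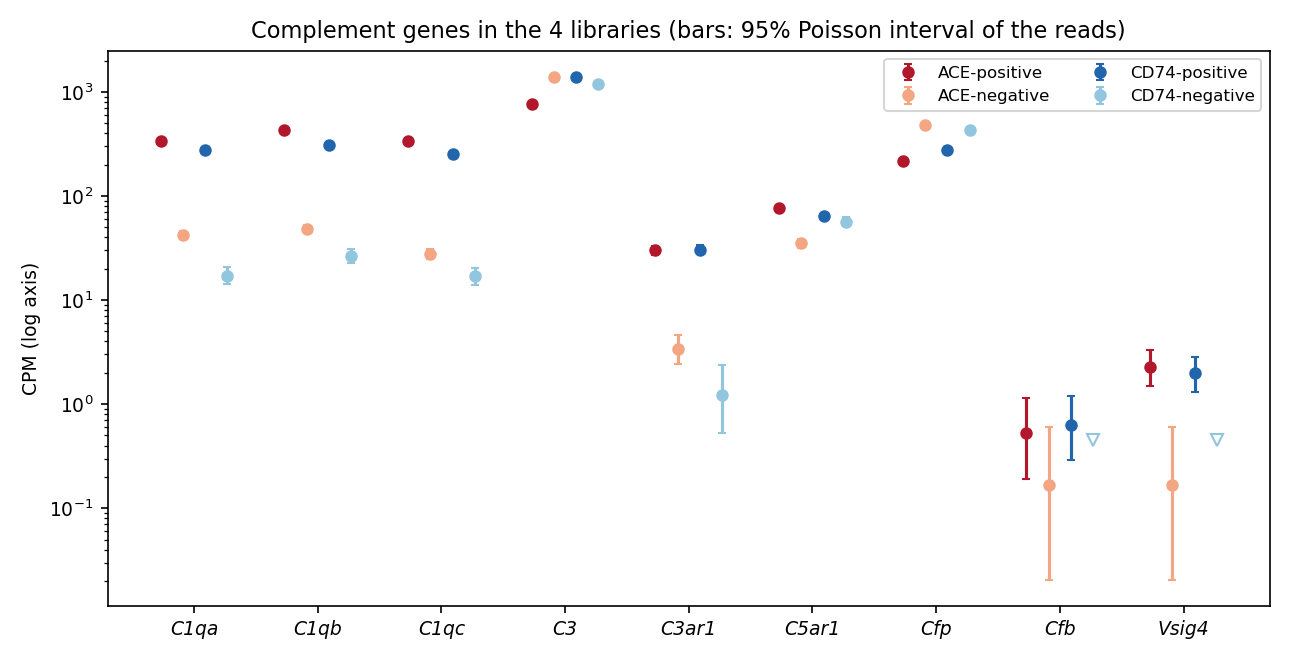
Level in CPM (log axis) of the 9 complement genes in the ACE+, ACE-, CD74+ and CD74- libraries, 1 point per library. Bars are 95% Poisson intervals of the reads, and open triangles mark genes with 0 reads, drawn at the level of 3 reads. The C1q chains and C3ar1 are higher in both positive libraries, C3 is at 763 CPM or more in all 4 libraries, and Cfb and Vsig4 stay below 3 CPM.

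As folds, C1qa was 7.98-fold higher (7.27 to 8.78) in the ACE+ library and 16.02-fold higher (13.3 to 19.5) in the CD74+ library. C1qb was 8.89-fold higher (8.16 to 9.70) in the ACE+ library and 11.6-fold higher (9.99 to 13.6) in the CD74+ library. C1qc was 12.2-fold higher (10.9 to 13.7) in the ACE+ library and 15.01-fold higher (12.4 to 18.3) in the CD74+ library. By log2 ratio these chains ranked 4 (C1qa), 8 (C1qc) and 12 (C1qb) from the top of the 9719 genes tested in the CD74 sort. In the ACE sort they ranked 28 (C1qc), 57 (C1qb) and 70 (C1qa) among 9656 genes. In the authors' deposited table, whose test is not given in the sources used here, C1qc had an adjusted p-value of 0.0428 in the ACE sort, and C1qb and C1qa had 0.137 and 0.195. In the authors' deposited table for CD74, the values were 0.0745 for C1qa, 0.0773 for C1qc and 0.105 for C1qb.

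The promoters of C1qb and C1qc are shown because the C1q genes differed together in both sorts. No window was at hand for C1qa or Cfb, so C1qa is left out of the motif description. RefSeq promoter windows (GRCm38.p6, minus strand, from 250 bases before to 50 bases after the start) were at hand for 7 of the 9 members, and those of C1qb (chr4:136886151-136886450) and C1qc (chr4:136892865-136893164) read as follows, with capitals for the motifs searched.
C1qb: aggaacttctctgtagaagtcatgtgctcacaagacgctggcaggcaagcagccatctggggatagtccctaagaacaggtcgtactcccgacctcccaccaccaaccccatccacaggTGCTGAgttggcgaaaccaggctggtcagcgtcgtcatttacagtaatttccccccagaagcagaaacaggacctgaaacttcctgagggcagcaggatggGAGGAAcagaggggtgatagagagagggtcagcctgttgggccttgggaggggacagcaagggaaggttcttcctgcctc
C1qc: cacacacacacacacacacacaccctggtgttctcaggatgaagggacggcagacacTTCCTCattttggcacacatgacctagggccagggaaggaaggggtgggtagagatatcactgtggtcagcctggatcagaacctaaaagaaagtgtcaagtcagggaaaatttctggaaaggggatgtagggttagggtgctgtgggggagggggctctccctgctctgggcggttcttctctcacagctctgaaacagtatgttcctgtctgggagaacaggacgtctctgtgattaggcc
The capitals mark GAGGAA, a core bound by the myeloid factor PU.1, and TGCTGA, a site of MAF factors, on either strand. C1qb held GAGGAA at position -30 and TGCTGA at position -131 from the start, and C1qc held GAGGAA on the opposite strand at position -193 and no TGCTGA. Of all 32851 promoter windows of the table, 28.3% held GAGGAA and 19.5% held TGCTGA. Neither window held TTCNNNGAA, a STAT motif found in 8.30% of windows, or the NF-kB motif, found in 1.47%. Positions count from the RefSeq start. For C1qc the deposited gene begins further upstream on the minus strand, at 136893065, so part of its upstream stretch lies within that gene. A match in these windows is a description of the letters and not of binding.

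The chains kept similar but not equal proportions. By reads, not adjusted for length, C1qb gave 39.1% of C1q reads (exact binomial interval 38.3 to 40.0) in the ACE+ and 41.1% (38.5 to 43.7) in the ACE- library. C1qc made up 30.5% of C1q reads (29.7 to 31.3) in the ACE+ library and 23.4% (21.2 to 25.7) in the ACE- library, so its share differed by more than counting error. C1qa moved the other way, at 30.4% (29.6 to 31.2) in the ACE+ and 35.5% (33.0 to 38.1) in the ACE- library. Between CD74+ and CD74- cells it was C1qb whose share differed beyond counting error, at 36.8% (36.0 to 37.7) in the positive and 43.8% (38.8 to 48.8) in the negative library. The intervals for C1qa and C1qc overlapped there, and the CD74- library held 400 C1q reads in all, against 11907 in the CD74+ library.

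**Figure D2:**
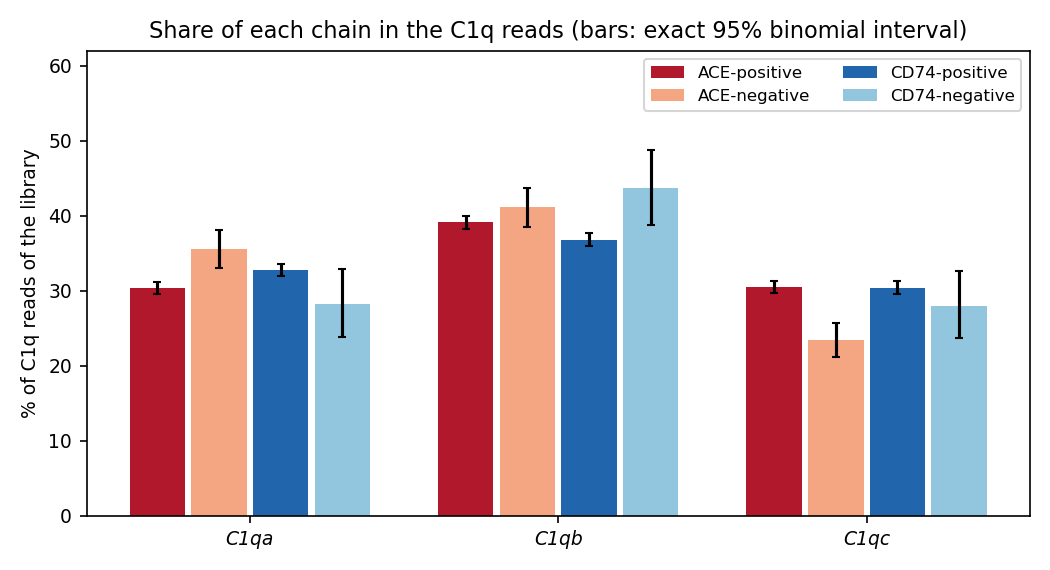
Share of C1q reads, in percent, that came from C1qa, C1qb and C1qc in the ACE+, ACE-, CD74+ and CD74- libraries. Black lines are exact 95% binomial intervals. The C1qc share is 30.5% in the ACE+ and 23.4% in the ACE- library, and C1qb has the largest share in all 4 libraries.

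Per kb of exon, C1qb stood at 398 CPM per kb, C1qa at 323 CPM per kb and C1qc at 175 CPM per kb in the ACE+ library. In the ACE- library the levels per kb were 44.8 for C1qb, 40.5 for C1qa and 14.3 for C1qc. In the CD74+ library they were 284 for C1qb, 265 for C1qa and 132 for C1qc, and in the CD74- library 24.5, 16.5 and 8.82 in the same order of genes. The order of the chains per kb was the same in the 4 libraries. How far C1qc lay below the other chains depends on its exon length of 1.93 kb, which counts all annotated exons. Set against all genes with a read in the library, the level of C1qa per kb lay above 99.1% of them in the ACE+ and 90.3% in the ACE- library. For the CD74 sort these figures were 99.0% in the positive and 77.5% in the negative library.

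The C1q difference lay within the range of the macrophage markers, above that of Csf1r, the receptor for the macrophage growth factor CSF1, and below the fold of Mertk, a receptor for the uptake of dying cells. Over the 8 markers the folds ran from 0.457 (Lyz2) to 21.4 (Mertk, interval 13.8 to 34.9) in the ACE sort and from 0.592 (Lyz2) to 21.6 (Mertk, interval 11.3 to 47.6) in the CD74 sort, where the intervals of Mertk and C1q overlapped. Summed over the chains, C1q was 9.34-fold higher (8.84 to 9.87) in the ACE+ library, where Csf1r was 2.70-fold higher (2.63 to 2.77). In the CD74+ library C1q was 13.8-fold higher (12.5 to 15.3) and Csf1r 1.79-fold higher (1.73 to 1.85). Counted within a library, which needs no scaling, there were 60.8 C1q reads per 100 Csf1r reads (59.4 to 62.1) in the ACE+ and 17.6 (16.6 to 18.6) in the ACE- library. There were 75.7 (74.0 to 77.6) in the CD74+ and 9.82 (8.84 to 10.9) in the CD74- library. Of these markers, 4 of 8 were higher and 1 lower in the ACE+ library, beside 9.46% higher and 8.62% lower over all tested genes. In the CD74+ library 2 of 8 were higher and 0 lower, beside 9.08% and 7.73%. Mertk, counted as higher in both, was under 5 CPM in both negative libraries. It reached the mean through the positive ones, so these counts are a description. The marker list summed to 13993 CPM in the ACE+ and 24805 CPM in the ACE- library, and to 14540 CPM in the CD74+ and 22077 CPM in the CD74- library, most of it Lyz2, and no marker was at 0. The part of cell makeup in the C1q result was not tested.

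The genes with the pattern most like the C1q chains were found by distance in the plane of the ACE and CD74 log2 ratios, over the 9533 genes that reached a mean of 5 CPM in both tables. The mean of the chains lay at 3.22 in the ACE sort and 3.75 in the CD74 sort. The 10 nearest genes outside the list, from 0.15 to 0.49 log2 units away, were the potassium channel gene Kcnj10, the sialic acid receptor gene Siglec1, the semaphorin gene Sema6d, the scavenger receptor genes Stab2 and Stab1, the collagen gene Col14a1, the endocytic adaptor gene Dab2, the integrin gene Itga9, the ubiquitin ligase subunit gene Asb2 and the adhesion molecule gene Vcam1. Siglec1 stood at 228 CPM in the ACE+ and 21.0 CPM in the ACE- library, and at 224 CPM in the CD74+ and 15.96 CPM in the CD74- library. Vcam1 stood at 274 CPM in the ACE+ and 37.5 CPM in the ACE- library, and at 204 CPM in the CD74+ and 17.9 CPM in the CD74- library. Kcnj10, Sema6d, Stab2, Col14a1, Dab2, Itga9 and Asb2 were under 5 CPM in both negative libraries, and Stab1 in the CD74- library. They reached the 5 CPM mean through the positive libraries, so their place among the nearest genes is a description. The likeness rests on 2 ratios from 4 libraries. It also depends on the 1 CPM added to each level, which shrinks ratios at low levels. As plain CD74 folds, Kcnj10 had 30.2, Sema6d 48.0 and Stab2 47.8, with intervals starting at 13.7, 13.1 and 16.2. The C1q chains had 11.6 to 16.02, Siglec1 14.0 and Vcam1 11.4. The receptor gene C3ar1, itself on the list, lay 0.42 log2 units from the mean of the chains.

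**Figure D3:**
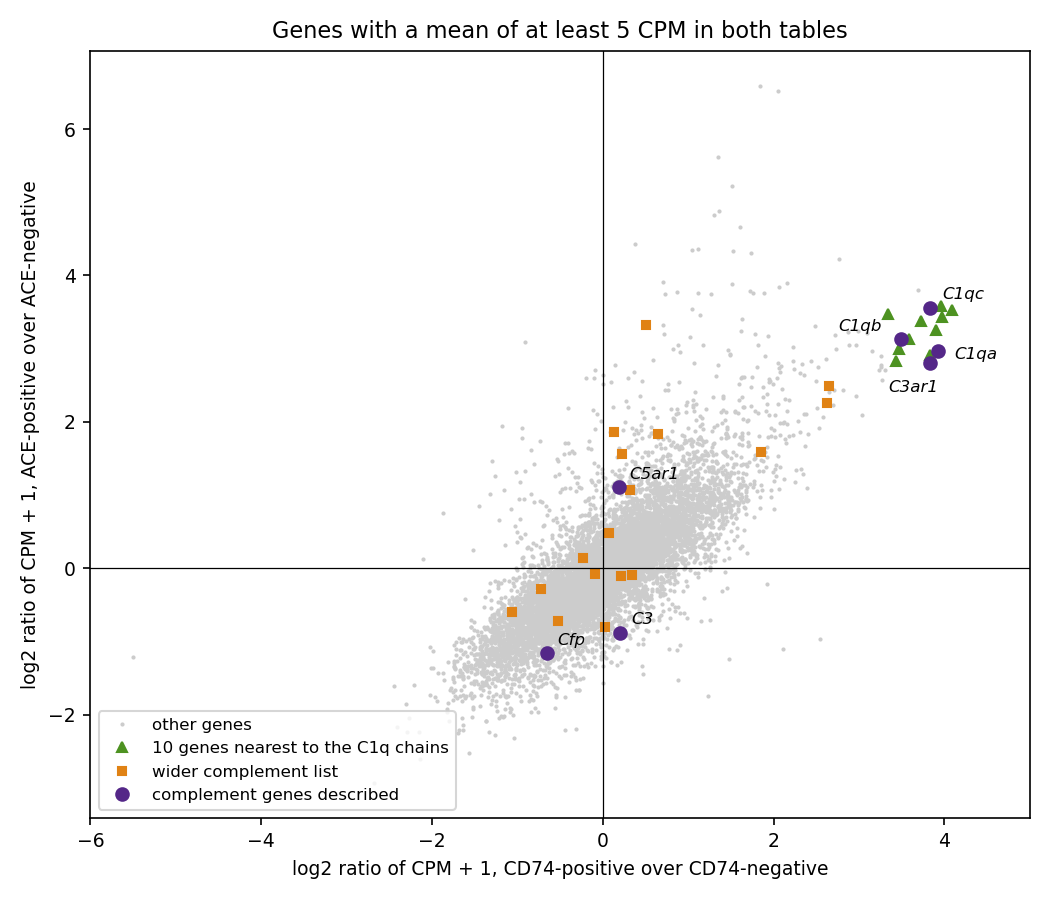
Each point is a gene that reached a mean of 5 CPM in both tables, placed by its log2 ratio of CPM + 1 in the CD74 sort (x axis) and the ACE sort (y axis). Circles are the complement genes described, squares the wider complement list, triangles the 10 genes nearest to the C1q chains and grey dots the other genes. C1qa, C1qb, C1qc and C3ar1 lie together at the upper right, C3 and Cfp lie below 0 on the ACE axis, and C5ar1 lies at 1.11 on the ACE axis and 0.19 on the CD74 axis.

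Among the receptors, C3ar1 differed like C1q and C5ar1 did not. C3ar1 (ENSMUSG00000040552, chromosome 6, 122847138 to 122856161) encodes the receptor for the anaphylatoxin C3a. C3ar1 stood at 30.0 CPM (26.9 to 33.3) in the ACE+ and 3.42 CPM (2.45 to 4.64) in the ACE- library, an 8.77-fold difference (6.33 to 12.4). In the CD74 sort it stood at 30.5 CPM (27.7 to 33.6) in the positive library and 1.22 CPM (0.525 to 2.40) in the negative library, where it had 8 reads, a 25.1-fold difference (12.6 to 58.6). The positive libraries of both sorts were thus at nearly the same level, and the CD74- library was the lowest. In the authors' deposited table its adjusted p-value was 0.615 in the ACE sort and 0.116 in the CD74 sort.

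C5ar1 (ENSMUSG00000049130, chromosome 7, 16246743 to 16259540) encodes the receptor for C5a, which draws and activates neutrophils and macrophages. It stood at 77.1 CPM (72.1 to 82.3) in the ACE+ and 35.1 CPM (31.8 to 38.6) in the ACE- library, a 2.19-fold difference (1.95 to 2.47) that passed the call. In the CD74 sort it stood at 64.7 CPM (60.6 to 69.0) in the positive and 56.5 CPM (50.9 to 62.6) in the negative library, with a fold of 1.14 (1.01 to 1.29) that did not. Within a library there were 38.9 C3ar1 reads per 100 C5ar1 reads (34.3 to 44.1) in the ACE+ and 9.74 (6.89 to 13.4) in the ACE- library. There were 47.2 (42.0 to 53.0) in the CD74+ and 2.15 (0.922 to 4.28) in the CD74- library. Per kb of exon C3ar1 was the lower of these receptor genes in all 4 libraries, with a level ratio to C5ar1 of 0.232 in the ACE+, 0.0581 in the ACE-, 0.282 in the CD74+ and 0.0128 in the CD74- library. The neutrophil markers, another set of cells that carry C5ar1, had 0 of 10 higher and 2 lower in the ACE+ library and 0 higher and 3 lower in the CD74+ library, and their part in the C5ar1 values was not tested.

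The promoter window of C3ar1 (chr6:122856108-122856407, minus strand) is shown beside those of C1qb and C1qc because its gene had a like pattern.
C3ar1: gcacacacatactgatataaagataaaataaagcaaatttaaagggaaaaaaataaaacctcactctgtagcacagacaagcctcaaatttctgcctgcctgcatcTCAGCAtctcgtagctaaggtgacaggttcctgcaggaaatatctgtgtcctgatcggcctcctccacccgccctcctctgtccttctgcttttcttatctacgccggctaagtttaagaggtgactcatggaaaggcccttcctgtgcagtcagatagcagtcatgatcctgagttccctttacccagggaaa
It held TGCTGA on the opposite strand at position -144 and no GAGGAA, so no motif searched was in all of the C1qb, C1qc and C3ar1 windows. The windows of C3 and C5ar1, whose patterns differed from that of C1q, each held TGCTGA as well, and the window of Cfp held GAGGAA and that of Vsig4 held both motifs. As for C1qc, the RefSeq start of C5ar1 lies within the deposited gene.

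Vsig4 (ENSMUSG00000044206, chromosome X, 96247203 to 96293438), the complement receptor of the immunoglobulin superfamily known from liver Kupffer cells, was near the limit of detection. It had 26 reads (2.27 CPM) in the ACE+ and 2 reads (0.167 CPM) in the ACE- library, a fold of 13.6 with an interval of 3.40 to 118. It had 28 reads (1.98 CPM) in the CD74+ library and 0 reads in the CD74- library, so it was at least 4.33-fold higher in CD74+ cells with the 0 set at 3 reads, while the exact interval of its fold starts at 3.30. Most of its reads were in the positive libraries, but its mean of 1.22 CPM in the ACE sort and 0.988 CPM in the CD74 sort was under the 5 CPM needed for a call. With the minimum at 1 CPM it was called higher in the ACE+ library, and with no minimum in both positive libraries.

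C3 did not follow C1q. C3 (ENSMUSG00000024164, chromosome 17, 57203970 to 57228136) had a level of 763 CPM (747 to 780) in the ACE+ and 1403 CPM (1382 to 1424) in the ACE- library, a log2 ratio of -0.88 that did not reach a call. In the CD74 sort it stood at 1392 CPM (1373 to 1412) in the positive and 1206 CPM (1179 to 1233) in the negative library, a log2 ratio of 0.21. The ACE+ library was the low one of the 4. C3 made up 34.8% of all reads on the 9 genes in the ACE+ library, 68.8% in the ACE-, 53.5% in the CD74+ and 68.6% in the CD74- library.

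Cfp (ENSMUSG00000001128, chromosome X, 20925454 to 20931555) encodes properdin, which stabilises the alternative pathway convertase and is made by neutrophils and monocytes. It stood at 215 CPM (206 to 223) in the ACE+ and 479 CPM (467 to 492) in the ACE- library, with a log2 ratio of -1.15, and was called lower. In the CD74 sort it stood at 274 CPM (266 to 283) in the positive and 432 CPM (416 to 448) in the negative library, with a log2 ratio of -0.65 and no call. Both negative libraries were above both positive ones. Centred on genes of like exon length, the ratio of Cfp was -0.64 in the ACE sort, which ended the call, and 0.0045 in the CD74 sort. Of the 10 neutrophil and promyelocyte markers, those called lower beside it in the ACE+ library were S100a8, at 1061 CPM in the ACE+ and 2487 CPM in the ACE- library, and Mpo, at 236 CPM in the ACE+ and 520 CPM in the ACE- library. Other markers of the list had folds near or above 1 in the ACE sort, with 1.27 (1.13 to 1.43) for Cxcr2, 1.23 (1.10 to 1.38) for Ly6g, 1.00 for Retnlg, 0.953 for Ngp and 0.912 for Ltf. Elane, Camp and S100a9 had folds of 0.604, 0.628 and 0.587 with no call. The part of these cells in the Cfp values was not tested. Per kb of exon C3 and Cfp were close in the negative libraries, with a ratio of C3 to Cfp of 0.988 in the ACE- and 0.942 in the CD74- library, against 1.20 in the ACE+ and 1.71 in the CD74+ library.

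Cfb (ENSMUSG00000090231, chromosome 17, 34856374 to 34862518), which encodes the factor B protease of the alternative pathway convertase, had 6 reads in the ACE+, 2 reads in the ACE-, 9 reads in the CD74+ and 0 reads in the CD74- library. The ACE fold of 3.14 had an interval of 0.561 to 31.8, and no difference was detectable at this depth in either sort. Of the 9 genes, 7 reached a mean of 5 CPM in both sorts and Cfb and Vsig4 in neither. In the ACE+ library 5 genes were higher, 1 was lower and 1 was neither, and in the CD74+ library 4 were higher, 0 lower and 3 neither, beside backgrounds of 9.46% and 9.08% of genes higher. The median log2 ratio of the 7 genes was 2.81 in the ACE sort and 3.49 in the CD74 sort, against -0.08 and -0.03 over all tested genes. C3ar1 reached the 5 CPM mean through the positive libraries alone, so the counts and medians over these 7 genes are a description and lend no support. The genes called higher in both sorts were C1qa, C1qb, C1qc and C3ar1, 4 of 7, while 458 of all 9533 genes were.

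**Figure D4:**
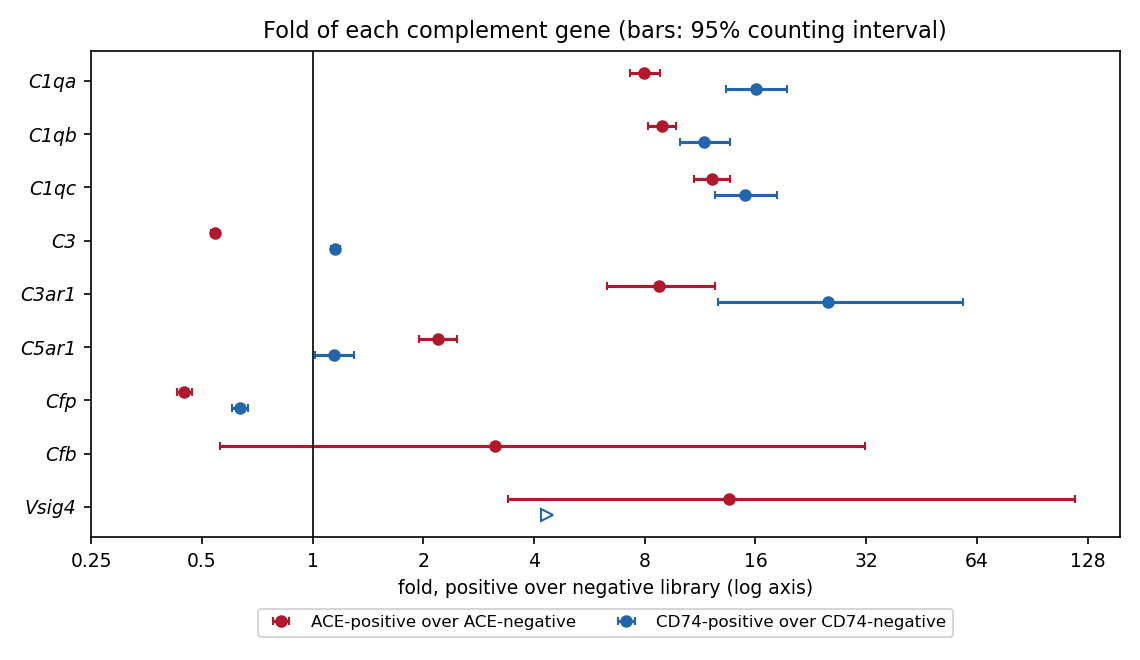
Fold of each of the 9 complement genes (log axis), ACE+ over ACE- and CD74+ over CD74-. Bars are 95% intervals from the read counts, the open triangle is the fold of Vsig4 in the CD74 sort with the 0 reads set at 3, and Cfb has no CD74 fold. C1qa, C1qb, C1qc and C3ar1 lie at 6.33-fold or more even at the low end of their intervals, and C3 lies on opposite sides of 1 in the sorts.

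The rest of the system was described by a wider list of 49 genes in 6 roles. The ACE table listed 35 of them and 18 reached a mean of 5 CPM, of which 9 were higher, 0 lower and 9 neither in the ACE+ library (median log2 ratio 0.78), beside 9.46% higher and a median of -0.08 over all tested genes. The CD74 table listed 38, and 17 reached it, of which 3 were higher, 1 lower and 13 neither in the CD74+ library (median 0.21), beside 9.08% higher and a median of -0.03 over all tested genes. In the ACE sort C1ra, Colec12, C4b, Serping1 and Clu were under 5 CPM in the ACE- library and reached the mean through the ACE+ library, so these counts too are a description. Higher in both sorts were Fcna, C4b and Lrp1. C4b was under 5 CPM in the CD74- library as well and reached that mean through the CD74+ library. Fcna, which encodes a ficolin of the lectin pathway, stood at 56.8 CPM in the ACE+ and 11.1 CPM in the ACE- library, and at 47.3 CPM in the CD74+ and 6.84 CPM in the CD74- library. C4b, the C4 gene of the classical and lectin convertase, stood at 29.5 CPM in the ACE+ and 4.42 CPM in the ACE- library, and at 18.6 CPM in the CD74+ and 2.13 CPM in the CD74- library. C4b has a near-identical neighbour, C4a, so its reads are uncertain where the authors' counting could have split them.

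C1ra, a protease that C1q activates, was 3.39-fold higher (2.48 to 4.71) in the ACE+ library, with 172 reads against 53 reads in the ACE- library, and stood at 8.33 CPM in the CD74+ and 6.99 CPM in the CD74- library. C1s1, the other protease, had 35 reads in the ACE+ and 1 read in the ACE- library, and 9 reads in the CD74+ and 1 read in the CD74- library. Both have close copies, C1rb and C1s2, and their reads are uncertain for the same reason. The collectin gene Colec12 was 4.38-fold higher (3.11 to 6.29) in the ACE+ library, and its fold in the CD74+ library was 1.12 (0.731 to 1.74). Fcnb, a ficolin of immature myeloid cells, was called in neither sort, at 59.0 CPM in the ACE+ and 97.9 CPM in the ACE- library, and at 83.0 CPM in the CD74+ and 120 CPM in the CD74- library. C2 and Cfd, which encode proteases that take part in forming the convertases, had at most 2 reads in any library. None of the 7 terminal pathway genes, of which each table listed 4, reached 5 CPM. C8g had 31 reads in the ACE+ and 18 reads in the ACE- library, and 48 reads in the CD74+ and 14 reads in the CD74- library. C6 had 28 reads in the ACE+ and 4 reads in the ACE- library, and 4 reads in the CD74+ and 3 reads in the CD74- library.

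Soluble and membrane regulators differed mostly in the ACE sort. Serping1, which encodes the C1 inhibitor, was 12.8-fold higher (9.25 to 18.3) in the ACE+ library, at 41.8 CPM against 3.25 CPM in the ACE- library. Serping1 stood at 10.6 CPM in the CD74+ and 7.14 CPM in the CD74- library. Clu, which encodes clusterin, was 19.0-fold higher (10.1 to 40.3) in the ACE+ library, at 15.9 CPM against 0.834 CPM in the ACE- library, and its CD74 fold was 1.01 (0.643 to 1.61). Cd55, a membrane inhibitor of the convertases, was 2.24-fold higher (1.75 to 2.88) in the ACE+ library, a call lost with a pseudocount of 5, and stood at 19.2 CPM in the CD74+ and 15.2 CPM in the CD74- library. Cr1l, which encodes the rodent regulator Crry, was called in neither sort, with folds of 0.819 (0.758 to 0.885) in the ACE sort and 0.605 (0.552 to 0.662) in the CD74 sort. Centred by exonic length, Cr1l was called lower in CD74+ cells.

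Some fibroblast markers were higher in the ACE+ library beside C1ra, Serping1 and Clu, genes that stromal cells also express. Of 8 such markers 6 were tested, and 3 were higher and 0 lower in the ACE+ library and 0 were called in the CD74 sort. Over all tested genes, for this and the next 2 lists, 9.46% were higher and 8.62% lower in the ACE+ library. The shares in the CD74+ library were 9.08% and 7.73%. The markers summed to 2587 CPM in the ACE+ and 828 CPM in the ACE- library, and to 2020 CPM in the CD74+ and 1318 CPM in the CD74- library, with none at 0. Most of each sum was Col1a1 and Col1a2. Those called higher had ACE folds of 3.47 (Col1a1), 3.01 (Col1a2) and 2.44 (Postn). Not called were Col3a1 with 0.897 (0.721 to 1.12), Lum with 1.34 (1.12 to 1.60) and Dcn with 1.82 (1.55 to 2.13). Under the 5 CPM mean were Pdgfra with 5.90 (3.32 to 11.3) and Prrx1 with 3.34 (1.84 to 6.43). Osteoblast markers had 2 of 5 tested higher and 0 lower in the ACE+ library, with folds of 9.93 (Ibsp) and 2.53 (Bglap2). In the CD74+ library 1 of 5 was lower and 0 higher, with a fold of 0.466 (Bglap). Endothelial markers had 2 of 3 tested higher in both positive libraries, at a sum of 101 CPM in the ACE+ and 55.6 CPM in the ACE- library, and of 100.04 CPM in the CD74+ and 69.2 CPM in the CD74- library. Those 2, Kdr and Cdh5, were under 5 CPM in both negative libraries and reached the mean through the positive ones, so this count is a description. Pecam1, the other one tested, had folds of 1.06 (0.943 to 1.19) in the ACE sort and 0.941 (0.833 to 1.07) in the CD74 sort. The part of these cells in the values of the regulators was not tested.

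Of the other receptors, Lrp1, an endocytic receptor that has been described to take part in C1q-linked uptake of dying cells, stood at 953 CPM in the ACE+ and 316 CPM in the ACE- library, and at 878 CPM in the CD74+ and 242 CPM in the CD74- library. It was 3.02-fold higher (2.91 to 3.13) in the ACE+ and 3.63-fold higher (3.44 to 3.82) in the CD74+ library. Itgax, the alpha chain of complement receptor CR4, was 3.61-fold higher (3.27 to 4.00) in the ACE+ library, and its fold in the CD74 sort was 1.58 (1.39 to 1.80) with no call. Itgam, the alpha chain of CR3, had folds of 0.927 (0.858 to 1.00) in the ACE sort and 1.16 (1.06 to 1.27) in the CD74 sort, and their shared beta chain Itgb2 was called in neither. Calr, which encodes calreticulin, an endoplasmic reticulum chaperone that also binds the C1q collagen tail, was called in neither, at 630 CPM in the ACE+ and 662 CPM in the ACE- library, and at 710 CPM in the CD74+ and 759 CPM in the CD74- library. C1qbp, a mitochondrial protein that binds the C1q globular heads in vitro, was the gene called lower, at 61.5 CPM in the CD74+ and 129 CPM in the CD74- library, and that call was lost under scaling by plain totals, without the 50 most abundant genes and when centred by exonic length. The C5a receptor C5ar2 had 65 reads in the ACE+ and 21 reads in the ACE- library, and 85 reads in the CD74+ and 20 reads in the CD74- library, under the 5 CPM mean in both sorts.

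**Figure D5:**
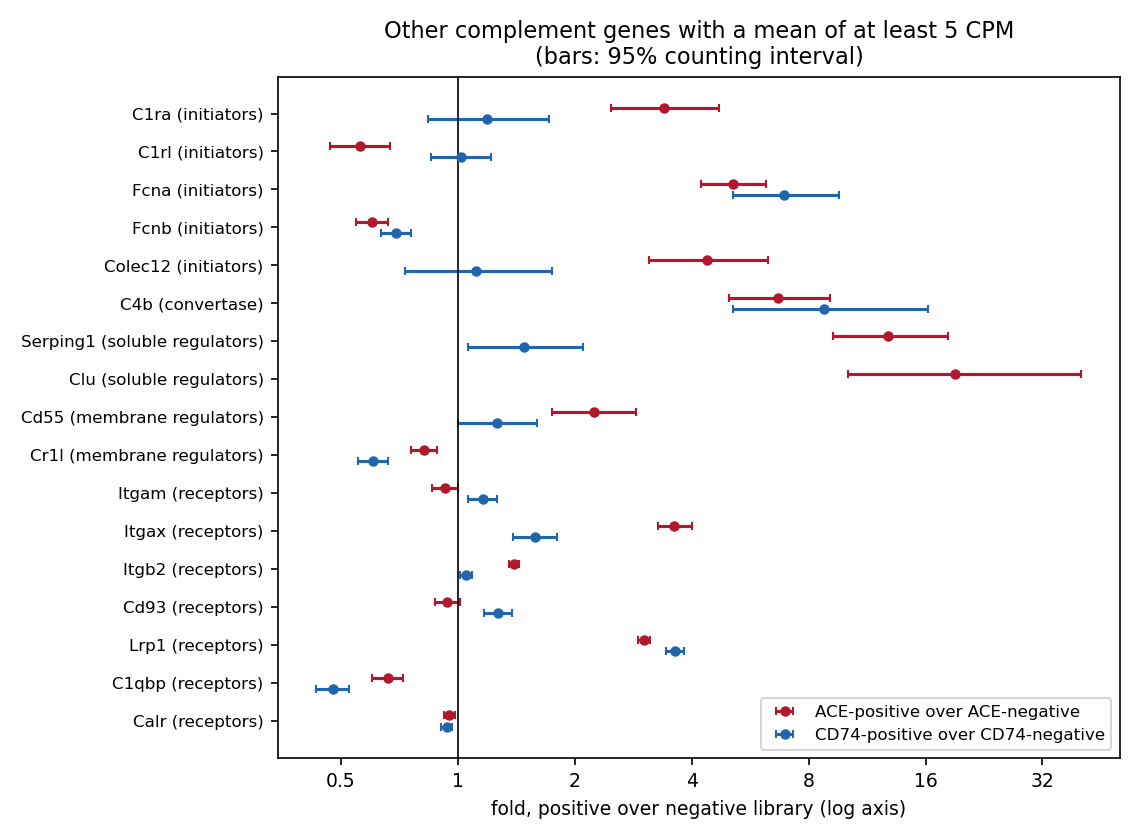
Fold (log axis) of wider-list genes that reached a mean of 5 CPM, by role, ACE+ over ACE- and CD74+ over CD74-. Bars are 95% intervals from the read counts, and a gene is drawn in each sort in which it reached that mean. Fcna, C4b and Lrp1 lie to the right in both sorts, Serping1 and Clu are far to the right in the ACE sort, and C1qbp lies furthest to the left in the CD74 sort.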

How the data were processed

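RNA of sorted cells was sequenced from TruSeq libraries, per the labels' protocols, and the submitters' processing notes name HISAT2 and GRCm38. Which counter, strand setting and test the authors used is not given in the sources used here. Per the file headers, the authors deposited 2 tables with a size-factor-normalised signal per library, its mean, a linear fold (ratio positive over negative), its log2 value, and p-values. For CD74, the header letters CN and CP were read as negative and positive, since the labels name that table as a control against a group with an unexplained abbreviation, which leaves a doubt about the CD74 values. There were 0 columns of other samples.

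The design assumed counts. The deposited values were whole multiples of a step (100% of values, tolerance 0.001 reads), so reads were recovered and scaled with TMM (edgeR 4.0.16, R 4.3.3). Quasi-likelihood and DESeq2 tests could not be fitted with 1 library per group, so the share of genes a count test would call is not given. Per library, intervals are exact Poisson 95% intervals, and folds have exact conditional binomial 95% intervals. Reads have no molecular identifiers, so intervals and floors cover counting error only. Per-kb levels use the union of exons in GENCODE M21, in which all 9 members have the deposited coordinates. Calls and intervals were tested on simulated data with counting error only, which cannot show how they hold under variation between libraries. Scripts ran in Python 3.11.15 with scipy 1.17.1, pandas 2.3.3, numpy 2.4.6 and, for plots, matplotlib 3.10.9.

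Members, gene lists, motifs and rules for named genes were chosen with earlier results of these data known. Named are the 9 members, the genes of the sorting markers, and wider-list genes called in either sort or among the 2 highest of their role. Also named are the 10 genes nearest to the C1q chains. The highest genes of the macrophage, fibroblast and endothelial marker lists are Lyz2, Col1a1 and Pecam1. The rule covered every marker list, but the highest genes of some other lists are not reported here. Of the 10 marker lists, Csf1r, Adgre1, Mertk, S100a8, Mpo, Cxcr2, Ly6g, Retnlg, Ngp, Ltf, Elane, Camp and S100a9 were named after their values were seen. The same holds for Kdr, Cdh5, Col1a2, Col3a1, Lum, Dcn, Postn, Pdgfra, Prrx1, Ibsp, Bglap, Bglap2, Gzma and Ms4a2. C1s1, C1s2, C1rb, C4a, C5ar2 and Itgam were named for their place in the pathway. A gene of the wider list is counted there but not reported here by name.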

Additional observations from a re-analysis of the deposited data

Results flagged for a closer look

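C3 was the member whose log2 ratio had opposite signs in the sorts with both fold intervals leaving out 1, at -0.88 in the ACE sort and 0.21 in the CD74 sort. Over the alternatives the CD74 ratio ran from 0.10 to 0.39 and kept its sign. Each group has 1 library and the tables were scaled separately, so the difference between the sorts was not tested.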

How the results depend on the processing

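The calls of C1qa, C1qb, C1qc and C3ar1 as higher in both positive libraries held under every scaling, pseudocount, filter, centring and threshold tried. Their log2 ratios ranged from 2.06 (C3ar1) to 4.04 (C1qc) for ACE, and for CD74 from 2.52 (C3ar1) to 4.86 (C1qa). C5ar1 in the ACE sort lost its call with a log2 ratio of at least 1.5 alone. The 1 gene called lower in the ACE+ library, Cfp, came to 0 with that threshold and when centred by exonic length. The 1 gene of the wider list called lower in the CD74+ library, C1qbp, came to 0 under plain totals, when the 50 most abundant genes were left out of the totals, and with a log2 ratio of at least 1.5; centred by exonic length the 1 gene was Cr1l in its place. The 9 wider-list genes called higher in ACE+ cells became 8 with a pseudocount of 5 or a log2 ratio of at least 1.5, without Cd55, and 12 with a minimum of 1 CPM or none. The log2 ratio of C3 ran from -0.89 to -0.74 for ACE and from 0.10 to 0.39 for CD74. The level of C1qc over C1qa per kb of exon was 0.540 in the ACE+, 0.354 in the ACE-, 0.5003 in the CD74+ and 0.534 in the CD74- library with all exons or the deposited lengths, and 0.867, 0.568, 0.803 and 0.857 with the longest transcript. The cause of these changes was otherwise not tested. No paired analysis was possible because each group has 1 library, and no library could be left out. Low read numbers limit Cfb, Vsig4, the terminal pathway genes and the CD74- level of C3ar1.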
